A study of Mus musculus with 20 samples.

Results

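T cell_1 was a cluster of 4142 cells among the 113579 cells of 18 mouse kidney libraries, 3.65% of the total. Its members were all cells to which the authors had given the cluster name T cell_1 in their annotation of these libraries, and no measured value was used to choose them here. The series has 2 annotations of partly the same cells. The first covers 18 libraries and 18 clusters, the second covers 20 libraries with 136794 cells and 19 clusters, and each T cell_1 cell was also found, by its barcode, in the second.

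The libraries came from kidneys of male C57BL/6J mice aged 10 to 12 weeks. Control mice gave 6 libraries. The other mice had both renal pedicles clamped for 23 min (IRI short, moderate ischemia-reperfusion injury) or 30 min (IRI long, severe injury) and were killed after 1, 3 or 14 d. Each combination of clamping time and day gave 2 libraries. The second annotation added 1 library from an IRI long mouse given VX-765, an inhibitor of caspase-1, at 100 mg/kg and 1 given liproxstatin, an inhibitor of ferroptosis, at 10 mg/kg. Both inhibitors were injected intraperitoneally 30 min before clamping and then every 24 h, and kidneys were taken at 14 d. According to the labels the inhibitor experiment had a vehicle group in DMSO, whereas the IRI long libraries at 14 d used beside it here carry no vehicle in their labels. Libraries are named by the prefix of their cell barcodes, since the cell names show the treatment group but not the replicate number. Each injured library was taken as 1 mouse. Whether the control libraries came from separate mice is not given in the labels. The tests therefore took libraries as replicates and set group differences against the spread between libraries, which may be smaller than that between mice.

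T cells carry the antigen receptor together with the CD3 chains, of which Cd3e and Cd3g are the usual transcript markers. In the healthy kidney they are a small resident population. After ischemia they enter the injured kidney along with neutrophils, monocytes and macrophages, and they are found in later inflammation as well as in repair. Natural killer (NK) cells are lymphocytes without the T cell receptor that share cytotoxic and signalling transcripts with T cells, and clusters built from transcriptomes can merge both. The tables used here hold a cluster name, a treatment group and 2 map coordinates for each cell and no expression values, so Cd3e and Cd3g could not be read, and the name T cell_1 was checked only against the second annotation and the map.

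Libraries held 2064 to 14320 cells and 54 to 568 T cell_1 cells, and the number of cells is the depth behind every fraction below. Control libraries gave 988 T cell_1 cells (23.9% of the cluster), IRI short libraries 1734 (41.9%) and IRI long libraries 1420 (34.3%). All 18 libraries held T cell_1 cells. One technical feature divided the libraries. The 5 control libraries Scl, norm1, norm2, norm3 and norm4 shared barcodes with each other at 1.34 per 1000000 pairs of cells, the remaining 13 libraries at 0.282, and libraries of different sets at 0.0206. Among the shared barcodes 1 marked a T cell_1 cell in both libraries within the first set, 1 within the second, and 0 between the sets. All injured libraries lay in the set of norm5, so for 5 of 6 control libraries the barcode set and the absence of injury cannot be told apart.

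In the second annotation most T cell_1 cells kept a lymphocyte name. The cluster T cell took 2876 of them (69.4%), the cluster NK 1044 (25.2%) and the cluster SMC 182 (4.39%), and every library contributed to these 3 clusters. The remaining 40 cells were spread over 7 names, among them GEC, Endo with 16 cells and PST, the straight segment of the proximal tubule, with 16. Counted together, the names T cell or NK covered 94.6% of T cell_1 cells. The same count gave 41.7% for T cell_2, the other T cell cluster of the first annotation, with 6396 cells, and 1.55% for the B cell cluster, with 2128 cells. T cell_2 cells were named PT, the proximal tubule, in 40.5% of cases and T cell in 36.8%.

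The NK cells of the second annotation came largely from T cell_1. In the 18 shared libraries 76.7% of the 1361 cells named NK had been T cell_1, as had 53.0% of the 5427 cells named T cell and 16.9% of the 1075 cells named SMC. The rest of the cells named NK were mostly T cell_2 cells, 312 of them, and for the name T cell 2353 were T cell_2 cells. These counts are pooled over libraries. The control library norm5 alone held 353 cells named NK, of which 137 had been T cell_1.

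On the first map T cell_1 formed 1 compact area. Its median coordinates were -5.11 and -8.83, against -2.27 and -6.80 for T cell_2. Of the 30 cells nearest to each T cell_1 cell, 90.6% were T cell_1 themselves and 9.37% were T cell_2, and T cell_2 made up 99.7% of the neighbours outside the cluster. For 4.59% of T cell_1 cells most of the neighbours were T cell_2. The edge of the cluster therefore lay almost wholly against T cell_2.

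On the second map the same cells lay in separate areas. Cells named T cell had 96.0% of their nearest neighbours under the same name, and cells named NK had 94.1%, so these names marked areas that hardly mixed. The SMC-named cells mixed more, with 65.0% of neighbours named SMC and 33.0% named T cell. On the first map these names were less apart: among the T cell_1 neighbours of NK-named cells 38.5% were NK-named too, against 25.4% around all T cell_1 cells. NK-named cells also had a larger share of T cell_1 neighbours on that map. T cell_1 cells made up 96.9% of the neighbours of NK-named cells and 88.6% of those of T cell-named cells. Both maps were computed from the cells that were clustered, so these shares describe the annotation and were not tested.

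**Figure D1:**
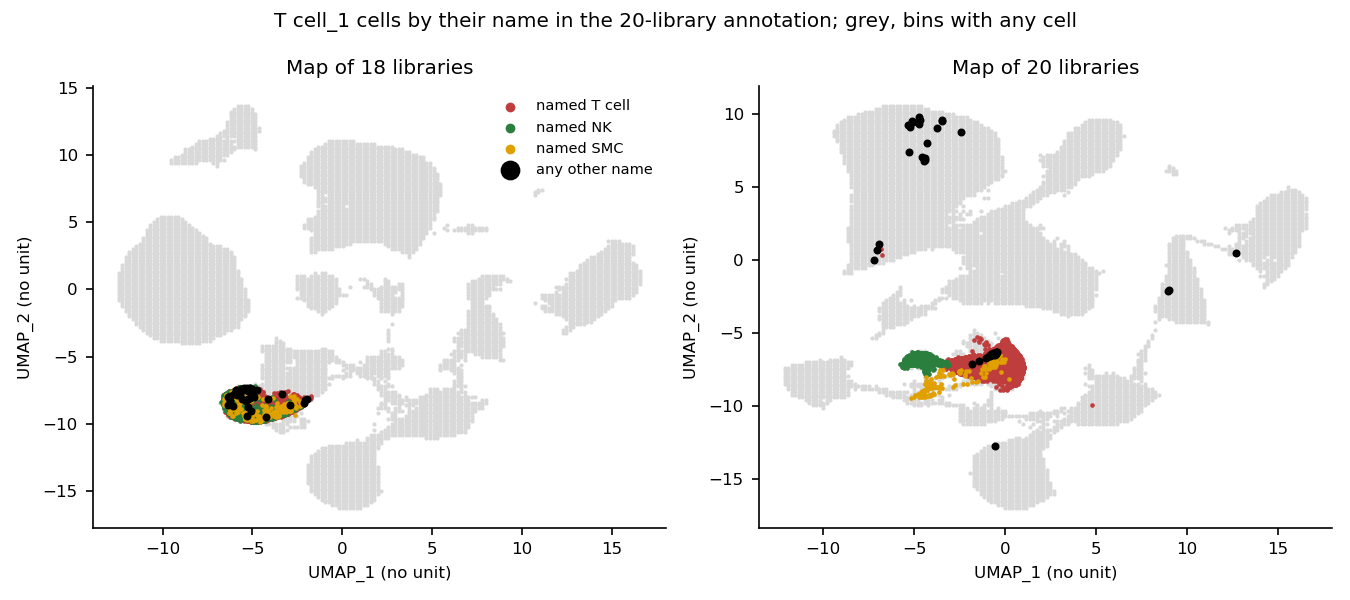
Position of the 4142 T cell_1 cells on the first map (left, 18 libraries) and the second map (right, 20 libraries), with UMAP coordinates without unit on both axes and grey bins for all other cells. Colour gives the name in the second annotation: 2876 cells named T cell, 1044 named NK, 182 named SMC and 40 with any other name, which occupy 1 area on the left and separate areas on the right.

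The first question was whether the T cell_1 fraction differed after injury. As percent of all cells of a library, T cell_1 made up 1.55% in Scl, 1.52% in norm1, 0.968% in norm2, 5.06% in norm3, 5.97% in norm4 and 4.28% in norm5. The control libraries thus fell into 3 low and 3 high libraries, with a mean of 3.22% ± 2.14 (SD, n = 6). The low ones came wholly from the barcode set that holds no injured library. The high libraries norm3 and norm4 came from that set too, so the split did not follow the set. For the smallest control library, norm3, the exact 95% binomial (Clopper-Pearson) interval ran from 4.20 to 6.04%. Such intervals cover counting error only, and here they are much narrower than the differences between control libraries.

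After IRI short the 2 libraries of 1 d held 1.67 and 2.10% T cell_1 cells, those of 3 d 6.24 and 5.97%, and those of 14 d 5.20 and 8.72%. After IRI long the 1 d libraries held 1.16 and 1.82%, the 3 d libraries 4.60 and 2.62%, and the 14 d libraries 5.35 and 7.68%. At 1 d every injured library lay below the 3 high control libraries, and at 14 d every one lay above 5 of the 6 control libraries. The highest fraction of the 18 libraries was that of IRF8, an IRI short library of 14 d.

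T cell_1 was not called between injured and control libraries over all days. The IRI short mean was 4.98% ± 2.68 (SD, n = 6), 1.55 times the control mean, and the IRI long mean was 3.87% ± 2.46 (SD, n = 6), 1.20 times the control mean. On the logit scale, with 3 days weighted equally, limma gave a difference of 0.52 (SE 0.31, adjusted p = 0.150) for IRI short against control and 0.22 (95% interval -0.44 to 0.88, adjusted p = 0.496) for IRI long against control. In these comparisons 66.7% and 83.3% of the 18 clusters were called, so T cell_1 was among the minority that were not. The exact permutation tests of the percentages gave adjusted p = 0.463 and 0.701. The direction depended on the scale: as a centred log-ratio over all clusters the limma differences were -0.60 (adjusted p = 0.0640) and -0.73 (adjusted p = 0.0259). With the barcode set as a term, norm5 alone stood for control, and the difference of IRI long from control was -0.30.

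By day the differences from control ran from negative to positive. At 1 d limma gave -0.34 for IRI short (adjusted p = 0.515) and -0.59 for IRI long (adjusted p = 0.278). At 3 d the values were 0.89 (adjusted p = 0.0743) and 0.30 (adjusted p = 0.505), and at 14 d they were 1.00 (adjusted p = 0.0597) and 0.94 (adjusted p = 0.0614). None of these 6 passed the threshold of 0.05, while of all clusters 55.6%, 72.2% and 55.6% were called for IRI short at 1, 3 and 14 d and 61.1%, 88.9% and 72.2% for IRI long. The exact permutation tests of 2 against 6 libraries cannot go below 0.0357, and none passed, with unadjusted p from 0.143 to 0.786.

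At 3 and 14 d some of these tests passed when 1 control library with a high fraction was left out, which raises the difference. Without norm4 the differences at 3 d for IRI short and at 14 d for both ischemia times passed the threshold, with values of 1.06 (adjusted p = 0.0281), 1.17 (adjusted p = 0.0258) and 1.11 (adjusted p = 0.0234). They also passed in limma without norm3 (adjusted p = 0.0415, 0.0323 and 0.0327) and without norm5 (adjusted p = 0.0490, 0.0414 and 0.0449). With other libraries left out the same differences fell as low as 0.69, 0.72 and 0.74. IRI short against control over all days passed without norm4 alone (0.69, adjusted p = 0.0477).

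The T cell_1 fraction rose from 1 d to 14 d after injury. Over both ischemia times its means at 1, 3 and 14 d were 1.69% ± 0.394, 4.86% ± 1.66 and 6.74% ± 1.74 (SD, n = 4 each). The fraction at 14 d was 3.99 times that at 1 d, and all 4 libraries of 14 d lay above all 4 of 1 d, a separation shared by 22.2% of clusters. The difference was 1.43 on the logit scale (SE 0.38, 95% interval 0.63 to 2.24) and passed the threshold in limma (adjusted p = 0.00545). In this comparison 33.3% of clusters were called. Of the 6 called, T cell_1 was the 1 that rose and the other 5 fell. The call held under each alternative tried, with adjusted p from 0.000403 to 0.0317.

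The step from 1 d to 3 d was 2.88-fold and that from 3 d to 14 d was 1.39-fold. All 4 libraries of 3 d lay above all of 1 d, as in 22.2% of clusters. In limma the first step was 1.06 (SE 0.38) and did not pass the threshold (adjusted p = 0.0582), with 5.56% of clusters called. The second step was 0.37 (95% interval -0.43 to 1.18, adjusted p = 0.476), with 22.2% of clusters called, and the libraries of both days overlapped. The first step passed when Scl (adjusted p = 0.0497), norm1 (adjusted p = 0.0476), norm2 (adjusted p = 0.0427) or norm4 (adjusted p = 0.0499) was left out, although these are control libraries that enter only the shared estimate of spread.

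T cell_2 and the B cell cluster were compared over the same days in the same fit. From 1 d to 14 d T cell_2 differed by 0.98 (adjusted p = 0.0681) and the B cell cluster by 0.22 (adjusted p = 0.587). From 1 d to 3 d the values were 1.26 (adjusted p = 0.0548) for T cell_2 and 0.84 (adjusted p = 0.0582) for B cells. The mean T cell_2 fractions at 1, 3 and 14 d were 3.45, 10.3 and 8.25%, and those of B cells were 1.76, 4.04 and 2.14%. Both were thus highest at 3 d, whereas T cell_1 was highest at 14 d. The difference between the clusters' time courses was not tested. Against control, the B cell cluster was higher after IRI short (1.03, adjusted p = 0.000674) and IRI long (0.86, adjusted p = 0.00276), while T cell_2 gave 0.69 (adjusted p = 0.0697) and 0.49 (adjusted p = 0.161). At 3 d T cell_2 was higher than in control, by 1.12 for IRI short (adjusted p = 0.0377) and 1.09 for IRI long (adjusted p = 0.0380). At 14 d its differences were 1.03 (adjusted p = 0.0597) and 0.62 (adjusted p = 0.228), and the days were not tested against each other in this respect.

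**Figure D2:**
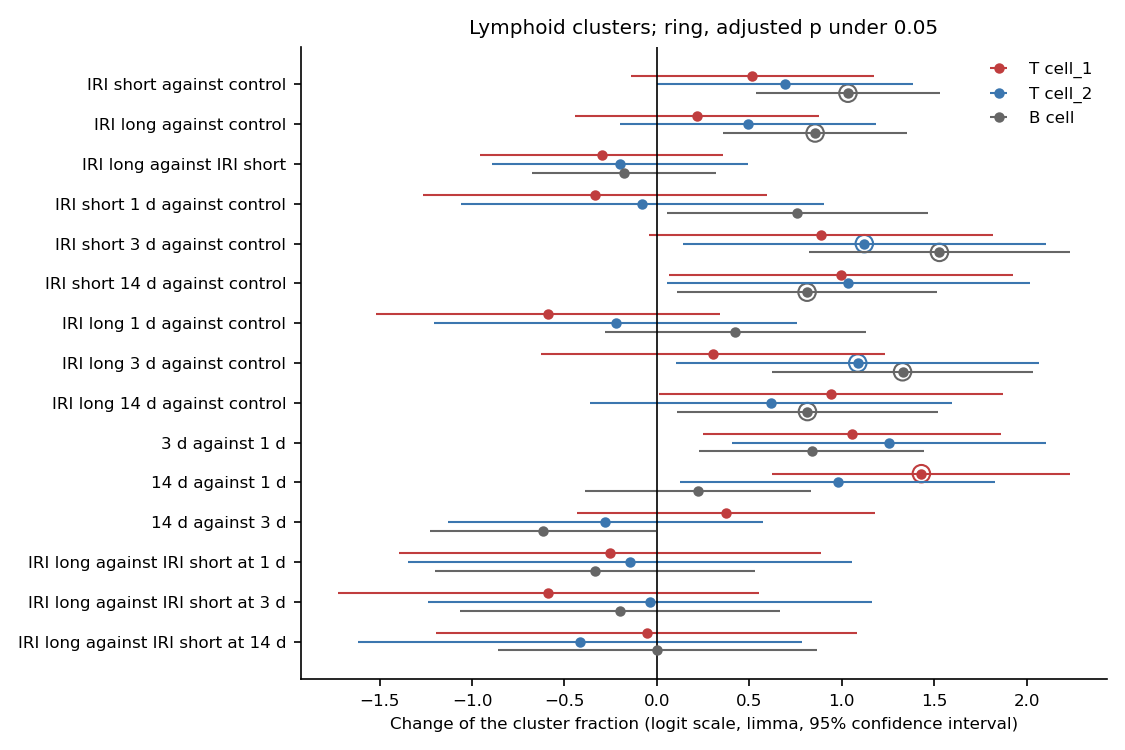
Differences of the cluster fraction on the logit scale (horizontal axis, with 95% confidence intervals from limma) for T cell_1, T cell_2 and B cell in 15 comparisons, with rings at adjusted p under 0.05. T cell_1 carries 1 ring, at 14 d against 1 d (1.43), while the B cell cluster carries rings in most comparisons with control.

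The second question was whether the severity of ischemia mattered. Over all days IRI long differed from IRI short by -0.30 on the logit scale (95% interval -0.96 to 0.36, adjusted p = 0.531), in a comparison with 27.8% of clusters called. At 1, 3 and 14 d the differences were -0.25, -0.59 and -0.05 (adjusted p = 0.930, 0.843 and 0.975), and 5.56%, 0% and 33.3% of clusters were called. At 3 d the count of 0 came with 3 clusters under an unadjusted p of 0.05, and T cell_1 was lower in both IRI long libraries than in both IRI short libraries. The change from 1 d to 3 d was 0.34 lower in IRI long than in IRI short (-0.34, adjusted p = 0.987, 5.56% of clusters called). The change from 1 d to 14 d differed by 0.20 (adjusted p = 0.856, 11.1% called). With 2 libraries per group the interval at 14 d ran from -1.19 to 1.08, so differences of about 1 logit unit in either direction were not detectable.

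As a share of immune cells T cell_1 was lower after injury. The 8 immune clusters (granulocytes, monocytes, macrophages, T cell_1, T cell_2 and B cells) made up 6.11 to 17.8% of a control library, 37.8 to 62.8% of an IRI short library and 41.7 to 80.6% of an IRI long library. T cell_1 made up 24.9% of immune cells in Scl, 19.4% in norm1, 15.8% in norm2, 39.1% in norm3, 42.0% in norm4 and 24.1% in norm5. It was the most or second most frequent immune cluster in norm3, norm4 and norm5 and the third in Scl, norm1 and norm2.

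After IRI short the shares of immune cells were 4.15 and 5.55% at 1 d, 9.95 and 11.2% at 3 d, and 12.4 and 15.2% at 14 d. After IRI long they were 1.92 and 4.37% at 1 d, 6.37 and 3.73% at 3 d, and 6.64 and 9.71% at 14 d. Every injured library lay below every control library.

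The mean share fell from 27.6% ± 10.6 in control to 9.74% ± 4.19 after IRI short and 5.46% ± 2.72 after IRI long (SD, n = 6 each). The differences were -17.8 and -22.1 percentage points, and both passed the two-sided exact permutation test with p = 0.00216 (adjusted p = 0.0195), a value below which 6 against 6 libraries cannot go. Groups did not overlap in 50.0% of the 8 immune clusters for IRI short and in 62.5% for IRI long, T cell_1 among them. The call for IRI short was lost when any 1 of 3 of the 6 IRI short libraries, IRF2 and IRF11 among them, was left out (exact permutation, adjusted p from 0.0556 to 0.0584), although the groups still did not overlap. All injured libraries also lay below norm5, the control library of their own barcode set. IRI long and IRI short differed by -4.28 percentage points (exact permutation within days, p = 0.0185, adjusted p = 0.111).

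Within the injured kidneys the share of immune cells was also higher at later days. The mean rose from 4.00% ± 1.51 at 1 d to 11.0% ± 3.66 at 14 d (SD, n = 4 each), with 7.81% ± 3.41 at 3 d. The difference between 14 d and 1 d was 1.11 on the logit scale within immune clusters (limma, adjusted p = 0.0270), where 25% of the 8 clusters were called. T cell_1 thus rose from 1 d to 14 d relative to all cells and relative to immune cells.

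Relative to the non-immune cells of the kidney T cell_1 was higher after injury, as were all 8 immune clusters. Per 100 non-immune cells there were 1.03 to 6.95 T cell_1 cells in control libraries (mean 3.72 ± 2.56, n = 6), 2.78 to 20.5 in IRI short (mean 10.9 ± 7.15, n = 6) and 2.95 to 36.6 in IRI long (mean 15.9 ± 13.8, n = 6). At 1 d the 4 injured libraries held 2.78 to 3.38 and were within the control range, at 3 d all 4 lay above it, from 8.74 to 16.8, and at 14 d all 4 lay above it, from 8.97 to 36.6. At 3 d and at 14 d this separation from control was shared by 100.0% of the 8 immune clusters. With this denominator, added after the data had been seen, the difference from control was 1.07 for IRI short (limma, adjusted p = 0.00428) and 1.29 for IRI long (adjusted p = 0.00101). By day it was 0.06 and 0.05 at 1 d (adjusted p = 0.900 and 0.915), 1.62 and 1.42 at 3 d (adjusted p = 0.00440 and 0.00679), and 1.54 and 2.39 at 14 d (adjusted p = 0.00874 and 0.000175) for IRI short and IRI long. When each immune cluster was set against non-immune cells in the same way, 100% of the 8 were called higher over all days and at 3 and 14 d for both ischemia times. At 1 d 75% were called higher for each ischemia time, and T cell_1 was not among them. The rise at 3 and 14 d was therefore not particular to T cell_1. Fractions sum to 100% in a library, so more T cells and fewer recovered epithelial cells cannot be told apart.

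**Figure D3:**
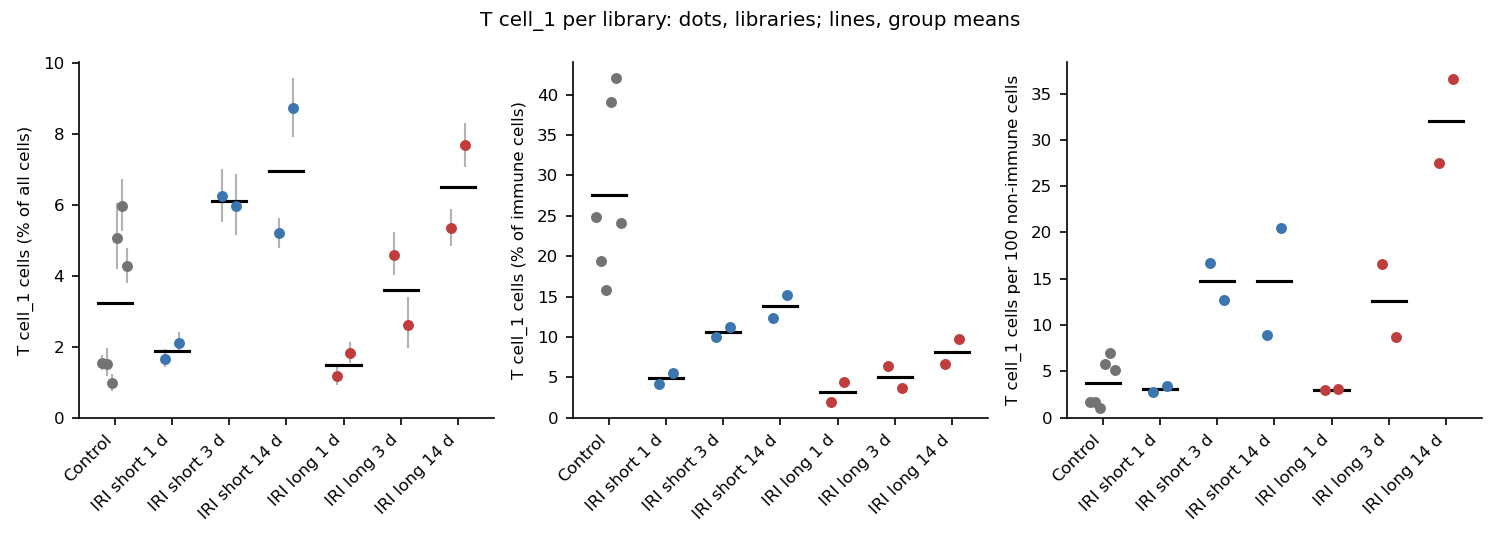
T cell_1 cells in each of the 18 libraries (dots, with exact 95% binomial intervals in the left panel) and group means (lines) as percent of all cells, percent of immune cells and number per 100 non-immune cells, for control (6 libraries) and each ischemia time and day (2 libraries each). In the middle panel every injured library lies below the lowest control library (15.8%), and in the right panel every injured library of 3 and 14 d lies above the highest (6.95).

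No difference in the balance between both T cell clusters passed the test. T cell_1 made up 42.1% ± 9.46 of the cells named T cell_1 or T cell_2 in control, 38.1% ± 5.40 after IRI short and 37.1% ± 16.1 after IRI long (SD, n = 6 each). The differences from control were -3.98 and -5.00 percentage points (exact permutation, adjusted p = 0.613 and 0.690), and IRI long differed from IRI short by -1.02 (adjusted p = 0.898). Single libraries ranged from 17.4% in IRF1 to 54.4% in IRF5, both IRI long libraries of 1 d. T cell_1 outnumbered T cell_2 only in IRF5 and IRF12, and norm3 held 115 cells of each. This share rests on T cell_2, of which 40.5% were named PT in the second annotation.

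The composition of T cell_1 by second name varied between libraries. In control the share named NK was 27.5% in Scl, 16.7% in norm1, 28.1% in norm2, 28.7% in norm3, 26.0% in norm4 and 48.1% in norm5, the highest of all libraries. The IRI short libraries gave 25.3 and 20.3% at 1 d, 30.6 and 23.2% at 3 d, and 21.7 and 21.6% at 14 d. The IRI long libraries gave 25.4 and 13.3% at 1 d, 38.2 and 44.4% at 3 d, and 20.2 and 17.5% at 14 d. The IRI long libraries of 3 d thus stood above the other injured libraries, and all 4 libraries of 14 d lay between 17.5 and 21.7%.

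Over both ischemia times the mean NK share at 1, 3 and 14 d was 21.1, 34.1 and 20.2%. As percent of all cells, the NK-named part of T cell_1 had means of 0.347, 1.55 and 1.36% at these days, and the T cell-named part 1.25, 2.94 and 5.07%. From 3 d to 14 d the mean of the NK-named part was thus 0.874 times its level at 3 d and that of the T cell-named part 1.72 times. These values are a description, since the split by name was chosen after it had been seen. In IRF7 the share of 44.4% rests on 24 of 54 cells and has an exact 95% binomial interval from 30.9 to 58.6%.

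The share of T cell_1 cells named T cell was tested between groups, and no difference passed. It was 65.2% ± 10.2 in control, 70.3% ± 5.13 after IRI short and 68.4% ± 11.9 after IRI long (SD, n = 6 each). The differences from control were 5.11 and 3.20 percentage points (exact permutation, p = 0.303 and 0.613, adjusted p = 0.606 and 0.701), and IRI long differed from IRI short by -1.91 (p = 0.537, adjusted p = 0.690). The share named SMC ran from 0.870% in norm3 to 10.9% in norm2, on 1 and 7 cells.

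**Figure D4:**
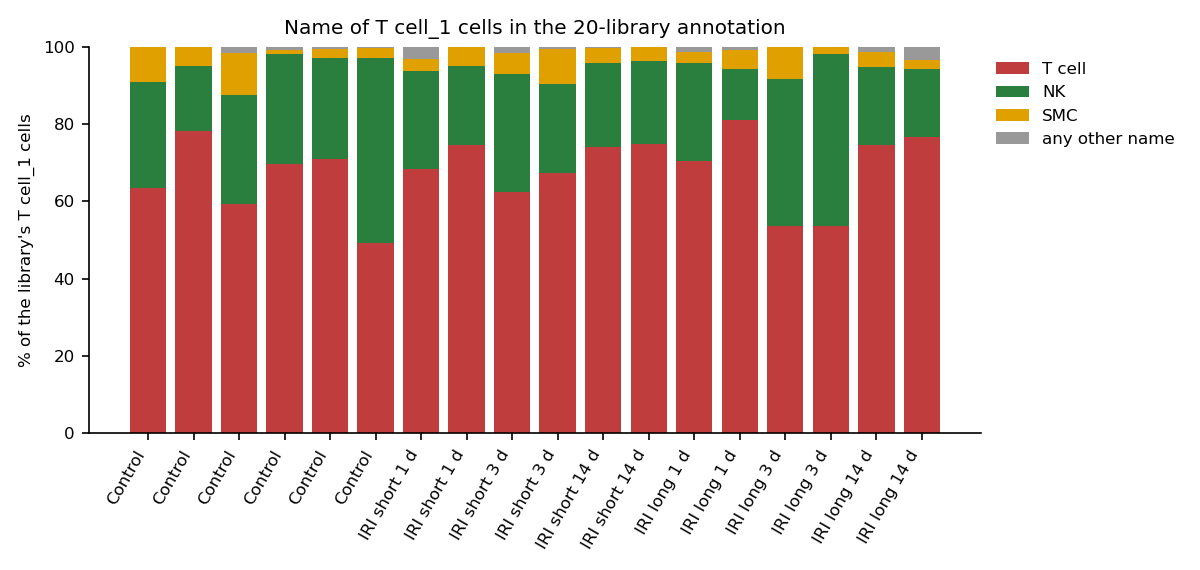
Share of each library's T cell_1 cells (bars, percent) with the name T cell, NK, SMC or any other name in the second annotation, for the 18 libraries, marked by their group. The NK share is highest in the last control library, norm5 (48.1%), and in both IRI long libraries of 3 d (38.2 and 44.4%), and lowest in 1 IRI long library of 1 d (13.3%).

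The inhibitor-treated libraries appear only in the second annotation, so T cell_1 could not be counted in them directly. With 1 library per inhibitor no test between treatments was possible. In the cluster T cell, which took most T cell_1 cells, the fraction was 2.63% with VX-765 (exact 95% binomial interval 2.33 to 2.95%) and 2.52% with liproxstatin (2.26 to 2.81%). The IRI long libraries of 14 d without inhibitor held 6.75 and 9.95%, and the control libraries 1.66 to 7.42%. As percent of all cells both treated libraries therefore lay below both untreated libraries of that day and inside the control range. The order depended on the denominator. With VX-765 279 cells named T cell stood beside 150 named Neutro_1 and 135 named Neutro_2, and with liproxstatin 318 beside 48 and 32. Without inhibitor 476 stood beside 1623 and 2294 in IRF12, and 719 beside 1177 and 1737 in IRF9. Relative to these neutrophil clusters the treated libraries thus held more T cell-named cells, which was not tested.

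The cluster NK gave 0.443% with VX-765 and 0.698% with liproxstatin, against 1.15 and 1.55% in the IRI long libraries of 14 d and 0.303 to 5.30% in control. The share of NK among cells named T cell or NK was 14.4% with VX-765 and 21.7% with liproxstatin, against 14.5 and 13.5% without inhibitor.

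As an estimate of T cell_1 itself, each cell of the second annotation was counted when most of its 30 nearest cells on the second map, from other libraries, were T cell_1 cells. In the 18 libraries where the true name is known, this found 77.8 to 96.8% of T cell_1 cells, and 46.4 to 91.8% of the cells it counted were T cell_1, with the lowest value in norm5. In the IRI long libraries of 14 d it gave 5.50 and 7.77% where the true fractions were 5.35 and 7.68%. The treated libraries gave 2.03% with VX-765 (1.77 to 2.31%) and 2.27% with liproxstatin (2.02 to 2.54%), both below these values. Both lay within the control estimates of 1.29 to 8.93%, where the true fractions were 0.968 to 5.97%. The highest estimate, 8.93%, was that of norm5, with a true fraction of 4.28%. The intervals of both inhibitors overlapped, and the estimates differed by less than the 2 untreated libraries did.

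**Figure D5:**
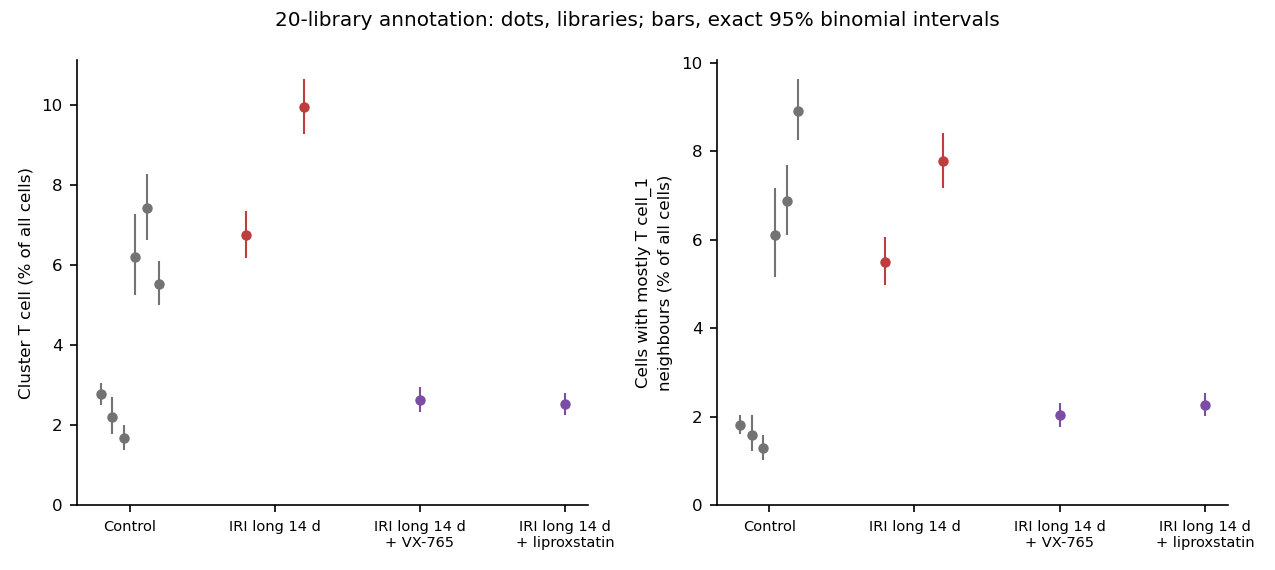
Cells in the cluster T cell of the second annotation (left) and cells whose nearest neighbours were mostly T cell_1 (right), as percent of all cells, in 6 control libraries, 2 IRI long libraries of 14 d and 1 library each with VX-765 and liproxstatin; dots are libraries and bars exact 95% binomial intervals. Both treated libraries (left 2.63 and 2.52%, right 2.03 and 2.27%) lie below both untreated IRI long libraries.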

How the data were processed

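Single-cell RNA-seq libraries were made from dissociated mouse kidneys, per the labels with 10X 3′ v3 kits throughout. Since 5 control libraries hardly shared barcodes with the rest, whether 1 kit version served all libraries was not tested. The authors aligned reads with Cell Ranger (mm10, GRCm38), kept cells with 200 to 3000 genes and at most 50% mitochondrial reads in Seurat, removed doublets, integrated libraries with LIGER and assigned names manually to Louvain clusters. The deposited tables give for each cell a name, a group and 2 UMAP coordinates, a score without unit. For the 20 libraries the paper describes the same filters and LIGER integration, but for a number of cells other than the deposited 136794. No expression table was used, so depth is cells per library (2064 to 14320), which sets the exact binomial intervals.

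Libraries were assigned to groups by their cells' treatment labels. Logits of the fractions (0.5 cells added) were fitted in R 4.3.3 with limma 3.58.1 and 7 group means, and p-values were adjusted over 18 clusters by the Benjamini-Hochberg method at a threshold of 0.05, after the fit had been tested on simulated data. Two-sided exact permutation tests over libraries (924 assignments, 216 within days, 28 for 2 against 6) were adjusted over 18 tests. Python 3.11.15 with scipy 1.17.1 and scikit-learn 1.9.0 was used for counts, tests and neighbours. Clusters named are T cell_1, T cell_2, B cell, second names with at least 1% of T cell_1 cells, and clusters with at least 5% of outside neighbours. PT, PST and GEC, Endo were named after their values were seen. The members, cluster lists and tests were chosen with earlier results of these data known. Alternatives were the arcsine scale, other denominators, the centred log-ratio, the second annotation, the barcode set as a term, pooled cells and leaving out each library.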

Additional observations from a re-analysis of the deposited data

Results flagged for a closer look

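In 1 library T cell_1 cells carried the name PST, the straight segment of the proximal tubule, in the second annotation. IRF9, an IRI long library of 14 d, held 16 such cells, and the other 17 libraries held 0. With 0 in the remaining 5 IRI long libraries any count above 0 would have been singled out, so the comparison adds nothing to the count itself. The 16 cells were among 555 T cell_1 cells of IRF9. Of all 5713 immune cells of that library 57 (0.998%) were named PST, and the highest such share in any library was 1.36%, in norm3. Over the measures and groups examined 22 were tested for a single distant library and 1 was found, where chance gives about 1 in 20.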

How the results depend on the processing

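No paired analysis was possible because cell names carry no replicate numbers. Of 757 values under alternatives, 690 were counted as unchanged, that is with the same direction and the same side of the threshold. Most alternatives, 630, left out 1 library, and 599 of these were unchanged. Of the 127 changes of scale, denominator, annotation, model or pooling, 91 were unchanged. Pooled cells have no p-value, so there a shift smaller than the larger group SD, with the direction kept, counted as unchanged. The rise of T cell_1 from 1 d to 14 d was unchanged in each of 23 (values 1.29 to 1.57 with 1 library left out). The depth of 54 to 568 T cell_1 cells per library limits counting error, while the 2 libraries per injured group and the spread of the 6 control libraries limit the comparisons. The cause of the changes below was not tested, except that immune and non-immune denominators change the comparison itself.

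On the arcsine scale IRI short at 14 d against control (0.0935) and 3 d against 1 d (0.0899) passed the threshold. As percent of immune cells on the logit scale, IRI short and IRI long against control turned to -1.30 and -1.95, with -1.97, -1.12 and -0.82 for IRI short and -2.49, -1.95 and -1.42 for IRI long at 1, 3 and 14 d. The change from 1 d to 14 d in IRI long minus that in IRI short turned to -0.0783. With the centred log-ratio over all clusters the comparisons with control gave -0.60 for IRI short and -0.73 for IRI long over all days, -1.43 and -1.56 at 1 d and -0.41 and -0.94 at 3 d, and IRI long against IRI short at 14 d gave 0.29. With the barcode set as a term, where norm5 alone stands for control, IRI long against control was -0.30, and -0.21 at 3 d.

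In the cluster T cell of the second annotation 3 d against 1 d passed (0.87), IRI long against IRI short at 1 d was 0.00112 and the difference in change from 1 d to 14 d was -0.0275. With T cell_1 and non-immune cells as the denominator, chosen after seeing the data, IRI short and IRI long against control passed (1.07 and 1.29). By day this denominator gave 0.0561, 1.62 and 1.54 for IRI short and 0.0476, 1.42 and 2.39 for IRI long. It also gave 1.47 for 3 d against 1 d, 0.22 for IRI long against IRI short and 0.85 for that comparison at 14 d. With cells pooled over libraries, IRI long minus IRI short turned to 1.12 percentage points for the share of T cell_1 among T cells and to 0.44 for the share named T cell.

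With 1 library left out, the lone library of a group was assumed to vary like the others. IRI short against control then ran from 0.32 to 0.69, IRI short at 3 d from 0.69 to 1.06 and at 14 d from 0.72 to 1.27, IRI long at 14 d from 0.74 to 1.13, and 3 d against 1 d from 0.91 to 1.20. IRI long against IRI short at 14 d ran from -0.33 to 0.22 (above 0 without IRF8 or IRF12). The difference in change from 1 d to 14 d ran from -0.0795 to 0.48 (below 0 without IRF10 or IRF1). In percentage points, IRI long against control ran from -0.114 (without IRF9) to 1.20, and at 3 d from -0.607 (without IRF4, and below 0 also without norm2) to 1.38. The share of immune cells in IRI short against control ran from -20.2 to -14.9. IRI long minus IRI short ran from -4.47 to 2.92 for the share among T cells (above 0 without IRF1, IRF4, IRF7 or IRF8) and from -4.47 to 1.03 for the share named T cell (above 0 without IRF4 or IRF7). The share named T cell in IRI long against control ran from -0.00995 (without norm5) to 6.14.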

Other observations

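The T cell_2 cluster, which bordered T cell_1 on the first map, was split more widely in the second annotation. Besides PT (2588 cells) and T cell (2353 cells), its names were Ribos. with 365 cells, NK with 312 and SMC with 279. T cell_1 gave 3 cells to PT in all.

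Outside T cell_1, the SMC-named cells of the 18 libraries came from Myofib (286 cells), T cell_2 (279) and Macro (168). With T cell_1 (182 cells), the name thus drew on lymphoid, stromal and myeloid clusters of the first annotation.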
